A study of Rattus norvegicus with 10 samples.

Results

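The 5 samples described here were rat mammary tumors taken at the end of adriamycin treatment, one from each of 5 tumors, whose codes are 09I1, 11D2, 12I1, 29I1 and 43D1. They were chosen by their label as final samples and make up 5 of the 10 arrays of the series. The host animals were female Sprague-Dawley rats that had received 100 mg/kg of the carcinogen 7,12-dimethylbenz(a)anthracene (DMBA) by mouth. All 5 tumors had first been biopsied with a cutting needle, were then exposed to 1 mg/kg of adriamycin per week for 6 weeks through the tail vein, and were collected at an age of 19 weeks, in week 7 after the biopsy. The sample labels call the material the whole tumor, whereas the design text describes a needle sample. The tumors had been selected for an intermediate histological grade. Whether any of them shared a host animal is not given in the sources used here. No untreated sample enters any comparison below, so differences are between treated tumors and nothing here measures a response to the drug.

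Adriamycin (doxorubicin) is an anthracycline that inserts into DNA and traps topoisomerase II on it, which leaves strand breaks in dividing cells. DMBA tumors of the rat are hormone-dependent carcinomas of the mammary epithelium that keep features of secretory luminal cells. They grow among fat, collagen-producing fibroblasts, vessels and immune cells, and may adjoin the muscle under the mammary gland. A piece of such tissue yields RNA from all of these in varying amounts. In tissue of this kind, fewer cells of a type and less RNA per cell cannot be told apart.

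RNA was hybridised to Affymetrix Rat Genome 230 2.0 arrays, on which a probe set is a group of short probes to the same transcript. Values are log2 intensities, so that a difference of 1 is a doubling of signal. A gene was represented by its brightest probe set, after 25% of the probe sets with the lowest mean had been left out, which left 12268 genes. Because the samples form a single group, no difference is tested and results are descriptions. Where 5 values follow each other without tumor codes, they are in the order 09I1, 11D2, 12I1, 29I1 and 43D1. Since a probe set's brightness also depends on its probes, the highest genes and the brightest members of lists are named by signal, which is no order of abundance.

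The array of 09I1 stood apart from the other 4 in its controls, so list results are given with and without it. The difference between the 3′ and 5′ probe sets of beta-actin, which grows when RNA is broken or copied incompletely, was 2.61 log2 units in 09I1, against 0.72 to 0.83 elsewhere. That of GAPDH was 0.93 against 0.094 to 0.12. The poly-A spike-ins, bacterial RNAs added before labelling, averaged 7.87 against 5.54 to 5.80. Across probe sets, the median correlation of 09I1 with the other arrays was 0.895, and that of each other array was 0.972 to 0.976. The part of these differences in the results on 09I1 was not tested.

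The highest signals came mostly from genes for protein synthesis and respiration, as is usual in tissue RNA. Of the 20 genes with the highest mean, 14 coded for ribosomal proteins. Such a gene is Rpl26, at 13.93 ± 0.046 (SD, n = 5). Eef1a1, the elongation factor that brings aminoacyl-tRNA to the ribosome, had a mean of 14.06 ± 0.13 (SD, n = 5). The mitochondrial genes COX1 and COX2, subunits of cytochrome oxidase, were at 14.01 ± 0.11 and 13.94 ± 0.060 (SD, n = 5). B2m, the light chain of MHC class I, and Tmsb4x, which binds free actin, were also among the 20. The remaining gene, Clca1, was lowest in 09I1 at 12.97, against 13.85 to 14.18 elsewhere. Signals this high lie near the upper end of the scale, where differences between samples can be compressed.

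Several epithelial markers were bright in all 5 tumors. Epcam, an adhesion molecule of epithelial cells, read 13.01 in 11D2, 13.05 in 12I1, 12.98 in 29I1, 13.01 in 43D1 and 12.02 in 09I1. Krt19, a keratin of simple epithelia, lay between 12.81 and 13.33. Prlr, the prolactin receptor, lay between 11.93 and 12.92, with 09I1 lowest. Krt8, the luminal keratin, was at 12.58 in 11D2, 12.28 in 12I1, 12.08 in 29I1, 11.61 in 43D1 and 11.53 in 09I1. The luminal epithelium list had 24 measured members and a range of 0.18 log2 units over those 4 tumors and 0.71 over all 5. The milk proteins Csn3 (kappa-casein) and Lalba (alpha-lactalbumin) were bright in all 5, with means of 13.20 ± 0.39 and 12.78 ± 0.53 (SD, n = 5). These markers were thus present in every sample labelled as a breast tumor.

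Most genes differed little from tumor to tumor. The median SD of a gene was 0.307 over the 5 tumors and 0.166 over the 4 without 09I1. An SD of at least 1 log2 unit was reached by 379 of 12268 genes (3.09%) over 5 tumors and by 243 (1.98%) over 4, with 213 genes in both sets. Of the 379 genes, 162 were set apart in 09I1. A gene is called set apart in a tumor here when its value is at least 1 log2 unit above, or below, that in every other tumor compared. Where a variable gene over 5 tumors had a second measured probe set, which 80 genes had, that probe set was highest in the same tumor in 49 and lowest in the same tumor in 52.

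The tumors differed widely in how many genes were set apart. In 09I1, 610 genes (4.97%) lay above every other tumor and 615 (5.01%) below. With each array centred on its median, these became 990 and 434, so the even split depends on the scaling. In 43D1 there were 75 above (0.611%) and 84 below (0.685%). In 11D2, 59 genes lay above (0.481%) and 7 below (0.0571%). Only 7 genes (0.0571%) were set apart above in 12I1 and 5 (0.0408%) below, which made it the tumor with the fewest such genes. Centring turned these into 4 and 10. In 29I1 there were 15 above (0.122%) and 27 below (0.22%). Among the 4 tumors without 09I1, the counts above were 95 in 43D1 (0.774%), 83 in 11D2 (0.677%), 26 in 29I1 and 12 in 12I1, and 99 genes (0.807%) lay below in 43D1.

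**Figure D1:**
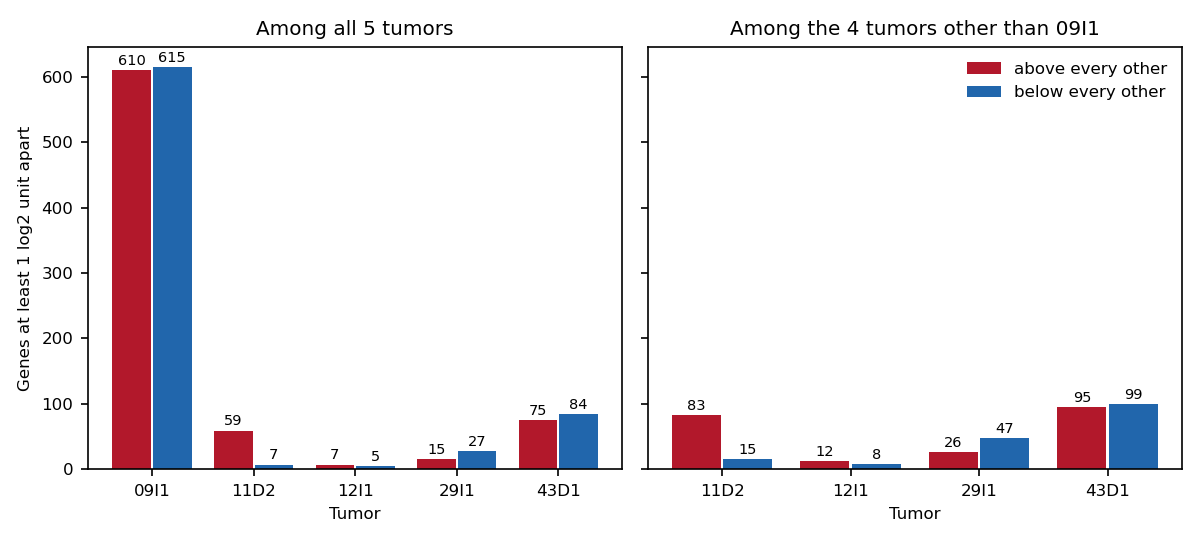
Number of genes (vertical axis) whose value in a tumor was at least 1 log2 unit above (red) or below (blue) that in every other tumor, among all 5 tumors (left) and among the 4 other than 09I1 (right), out of 12268 genes. The bars of 09I1 stand at 610 and 615, and no other bar exceeds 99.

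Second probe sets were apart as well to different degrees. Of genes set apart above in 11D2 and having a second probe set, 7 of 7 were apart by 1 unit there too, and below the count was 0 of 2. In 43D1 the count was 17 of 23 above and 6 of 17 below. In 09I1 it was 30 of 116 above (25.9%) and 121 of 290 below (41.7%). Hdac1, a histone deacetylase, is one such disagreement. Its brightest probe set read 6.44 in 09I1 and 9.95 to 10.32 elsewhere, while its second read 9.22 in 09I1 and 9.20 to 9.48 elsewhere. Adam10, a membrane protease, was low in 09I1 by both, at 4.74 against 8.60 to 8.89 and 3.14 against 7.43 to 8.18.

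Genes of proliferation differed between these tumors and did so together. Mki67, the antigen of cycling cells, read 9.52 in 09I1, 9.22 in 12I1, 9.13 in 11D2, 7.79 in 29I1 and 6.06 in 43D1. Tumors 09I1, 11D2 and 12I1 lay close together, 29I1 was lower, and 43D1 was 1.73 log2 units below the next tumor. Top2a, the topoisomerase that adriamycin traps and itself a gene of dividing cells, read 8.88, 9.04, 9.08, 7.81 and 6.03. Its second probe set had the same lowest tumor. Cdk1, the kinase that starts mitosis, went from 10.01 in 09I1 to 6.34 in 43D1. Ccnb2, a cyclin that binds it, went from 9.60 to 6.19. Ube2c, the conjugating enzyme of the anaphase-promoting complex, went from 10.23 to 6.33.

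The whole mitosis list followed these genes. Of 40 genes written, 34 were measured. An SD of at least 1 was reached by 24 of them over 5 tumors (3.09% of all genes) and by 26 over 4 (1.98%). The list's profile, the median over members of the value minus the gene's mean over the tumors, was -1.97 in 43D1, -0.66 in 29I1, 0.77 in 12I1, 0.79 in 11D2 and 0.96 in 09I1. Without 09I1 it was -1.67 in 43D1, -0.41 in 29I1, 1.03 in 12I1 and 1.07 in 11D2. Tumor 43D1 was lowest of the 4 for 33 of 34 members, where 28.1% of all genes were lowest. In it, 25 members were set apart below (0.807% of all genes). A single profile common to the members carried 89.1% of their between-tumor sum of squares over 5 tumors and 90% over 4. For all genes taken as a list, that share was 0.94% and 0.87%. The share also depends on list length. For unrelated members it would be about 2.94% in a list of 34, and more in a shorter list. The range of the list over 5 tumors was 2.93 log2 units, and 1.64 without 43D1. Its highest and its lowest tumor were the same under 5 other settings of filter, scaling and probe set.

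Genes of DNA replication varied with them over a smaller range. The list's profile was -0.93 in 43D1, -0.46 in 29I1, 0.17 in 12I1, 0.35 in 11D2 and 0.92 in 09I1. Tumor 11D2 was highest of 4 for 26 of 29 members (25.7% of all genes) and 43D1 lowest for 29 of 29 (28.1%). The common profile carried 82.2% over 5 tumors and 84.6% over 4. Uhrf1, which carries DNA methylation through replication, read 7.91, 7.87, 7.64, 6.50 and 5.52. Gins1, part of the replicative helicase, read 8.53, 6.78, 6.60, 5.56 and 4.66. Pcna, the sliding clamp and the brightest member, covered only 11.89 to 10.79. Of all 5 tumors, 09I1 was highest for 25 of 29 replication genes and for 21 of 34 mitosis genes, where it was highest for 44.9% of all genes.

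**Figure D2:**
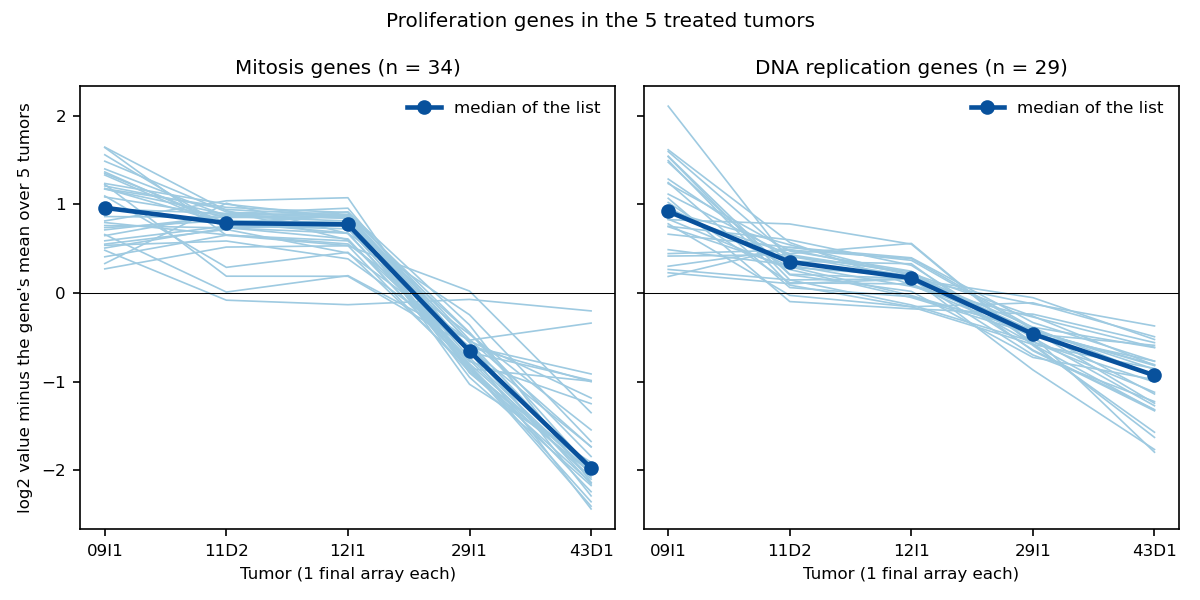
Log2 value minus the gene's mean over the 5 tumors (vertical axis) for each measured gene (thin lines) of the mitosis list (left, n = 34) and the DNA replication list (right, n = 29), with the list median (thick line). Lines join the values of a gene and the tumors have no order; the median falls from 0.96 in 09I1 to -1.97 in 43D1 on the left and from 0.92 to -0.93 on the right.

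Promoters of the 3 most variable mitotic genes that carry both motifs described next are printed because the list moved almost as a unit. Genes expressed late in the cell cycle commonly carry CCAAT boxes, which bind the factor NF-Y, and a cell cycle homology element, which binds the MuvB complex. Each sequence runs 5′ to 3′ on the gene's strand from 250 bases before to 50 after the start given by RefSeq on the GRCr8 assembly. Capitals mark the letters CCAAT on either strand, and the other element, which was searched as TTTGAA on either strand and also as TTTAAA. The motifs were searched apart, so that overlapping matches would both count.
Cdk1, chr20:19265043-19265342, plus strand: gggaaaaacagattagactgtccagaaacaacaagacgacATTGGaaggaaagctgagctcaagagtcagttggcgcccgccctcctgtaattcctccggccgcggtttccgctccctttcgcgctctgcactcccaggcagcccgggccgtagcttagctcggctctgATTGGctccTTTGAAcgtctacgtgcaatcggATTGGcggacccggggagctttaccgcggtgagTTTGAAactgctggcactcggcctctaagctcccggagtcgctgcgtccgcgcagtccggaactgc
Ccnb2, chr8:79981609-79981908, minus strand: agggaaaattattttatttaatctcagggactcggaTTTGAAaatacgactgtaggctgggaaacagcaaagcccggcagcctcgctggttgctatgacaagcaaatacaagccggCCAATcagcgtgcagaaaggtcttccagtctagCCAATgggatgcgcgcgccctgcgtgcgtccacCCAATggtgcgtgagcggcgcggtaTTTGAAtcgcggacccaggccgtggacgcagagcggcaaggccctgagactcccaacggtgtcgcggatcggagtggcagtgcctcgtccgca
Ccnb1, chr2:33655176-33655475, minus strand: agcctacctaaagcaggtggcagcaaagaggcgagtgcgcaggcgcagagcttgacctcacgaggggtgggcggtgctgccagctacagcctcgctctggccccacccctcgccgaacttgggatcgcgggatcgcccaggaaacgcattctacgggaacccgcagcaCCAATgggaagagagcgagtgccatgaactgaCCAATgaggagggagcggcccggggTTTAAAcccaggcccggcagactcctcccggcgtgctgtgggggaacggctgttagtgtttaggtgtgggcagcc
The Cdk1 window held 3 CCAAT matches and 2 of the other element, Ccnb2 held 3 and 2, and Ccnb1 held 2 and 1. Both were present in 20 of 28 mitosis promoters in the table (71.4%), against 7.48% of the promoters of measured genes and 11.2% of all 27457. CCAAT alone was in 22 of 28 (78.6%), against 37.2% of measured genes, and the other element in 24 of 28 (85.7%), against 18.9%. Of 26 DNA replication promoters, 14 held CCAAT, 5 the other element and 1 both (3.85%). A match says only that the letters are present.

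Ccnd1, cyclin D1, which drives cells from rest into the cycle, read 12.75 in 43D1, 12.62 in 29I1, 12.06 in 11D2, 12.04 in 12I1 and 10.40 in 09I1. It was thus highest in the tumors with the lowest mitotic values, and lowest in 09I1, but the gene was chosen after its values were seen. Cdkn1a, the p53-induced inhibitor p21, stayed between 8.84 in 43D1 and 9.72 in 11D2. Mdm2, which limits p53 and is induced by it, read 8.40 in 09I1 and 8.86 to 9.16 in the others. The p53 target list had a range of 0.18 log2 units over 5 tumors and 0.092 over 4. Its common profile carried 9.84% and 0.94%, beside about 4.76% for unrelated members. The range over 5 depended on the setting, with 0.37 with no filter, 0.54 with the lowest 50% left out, 0.57 with means over probe sets, 0.29 after cyclic loess, 0.30 with means over members or without 43D1, and 0.061 without 12I1. With the lowest 50% left out, 09I1 was lowest at -0.44. With arrays centred, 09I1 was highest and 43D1 lowest. An SD of 1 was reached by 0 of 21 members, beside 3.09% of all genes. Gadd45a, a stress-induced p53 target, was highest in 43D1 at 9.80, with 8.89 to 8.98 in 11D2, 12I1 and 29I1 and 7.86 in 09I1.

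Skeletal muscle genes set 11D2 apart. Acta1, the actin of skeletal muscle, read 11.89 in 11D2, 7.52 in 43D1, 7.07 in 09I1, 4.94 in 29I1 and 3.71 in 12I1. Myl1, a fast myosin light chain, read 10.93 in 11D2 and 3.43 to 4.21 in the others, a gap of 6.71 log2 units. Tnnc2, fast troponin C, was 10.19 against 3.57 to 4.31. Ckm, muscle creatine kinase, was 9.47 against 4.07 to 4.24. Outside 11D2 these last 3 lay near or under the lower quartile of each array, so the gaps rest on a dim side. The list's profile was 2.18 in 11D2 and -0.77 to -0.18 in the others. The filter kept 26 of 33 genes on the array, and 6 of the 26 lay above the lower quartile in only 2 arrays, so the measured members were partly chosen by their signal in 11D2. With no filter, the profile of all 33 was 1.80 in 11D2 and -0.65 to -0.16 in the others. The range of the list was 2.95 over 5 tumors, 3.01 without 09I1 and 0.56 without 11D2. A member that did not follow was Myh1, with 10.35 in 11D2 and 10.52 to 11.84 elsewhere. Acta1 was also higher in 09I1 and 43D1 than in 12I1 and 29I1.

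Several genes of fat, among them Fabp4, Car3 and Adipoq, were high in 09I1, 11D2 and 43D1 and low in 12I1 and 29I1. Fabp4, the fatty acid carrier of fat cells, read 8.38, 9.15 and 8.21 in the first 3, and 4.99 and 4.57 in the others. Car3, a carbonic anhydrase abundant in fat, read 10.76 in 11D2, 10.04 in 09I1, 9.39 in 43D1, 6.60 in 12I1 and 6.20 in 29I1. Adipoq, the fat hormone adiponectin, read 6.55, 7.39, 3.65, 4.65 and 6.39. Another variable member, Cd36, a fatty acid receptor, was instead lowest in 09I1 at 4.25. The adipocyte list as a whole was highest in 11D2, with 43D1 near the mean. Over 5 tumors its profile was 0.74 in 11D2, 0.29 in 09I1, 0.00 in 43D1, -0.26 in 12I1 and -0.68 in 29I1. Without 09I1 it was 0.10 in 43D1, -0.43 in 29I1, -0.18 in 12I1 and 0.68 in 11D2. By members among the 4, 12I1 was lowest for 10 of 20 (19.9% of all genes) and 29I1 for 6 (28.4%). Lpl, lipoprotein lipase and the brightest member, was also highest in 11D2 at 10.71, with 8.91 to 9.91 in the rest. The range of the list over 5 tumors was 1.42, but 0.66 with no filter on dim probe sets and 0.86 without 11D2.

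Some genes known from lymphatic vessels were high and low in the same tumors as Fabp4. They were named for their large SD and form no list of their own. Ccl21, a chemokine that lymphatic vessels use to draw in T cells and dendritic cells, read 9.94 in 09I1, 9.30 in 43D1, 9.12 in 11D2, 4.50 in 12I1 and 4.35 in 29I1. Mmrn1, a matrix protein of lymphatic endothelium and platelets, read 7.14, 7.43, 3.54, 3.33 and 7.05. Lyve1, a hyaluronan receptor of lymphatic vessels and some macrophages, read 9.75 in 11D2, 8.42 in both 43D1 and 09I1, 7.31 in 12I1 and 5.78 in 29I1. Pecam1, an adhesion molecule of all endothelium, covered only 7.15 to 7.35. The endothelium list had a range of 0.29 log2 units over 5 tumors and 0.30 over 4, 0.54 with means over members and 0.12 without 29I1. Its common profile carried 8.94% over 5 tumors and 11.9% over 4, beside about 4.35% for unrelated members.

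Genes of red blood cells were highest in 09I1 and 11D2. Hbb, a beta-globin, read 13.22 in 11D2, 12.51 in 09I1, 11.09 in 12I1, 9.82 in 43D1 and 9.21 in 29I1. Hba-a3, an alpha-globin, read 11.71, 11.01, 8.26, 6.89 and 7.49. Alas2, the first enzyme of heme synthesis in erythroid cells, read 7.28, 8.43, 5.63, 4.37 and 4.71. Tumor 12I1 lay between the high and low tumors for these 3. Globin genes are near-identical copies, so probe sets may share their signal. Of 14 erythroid genes on the array, the filter on dim probe sets kept 7, whose profile was 1.07 in 09I1, 0.63 in 11D2 and -0.77 to -0.35 in the others. With no filter, the profile of all 14 was 0.37 in 09I1, 0.25 in 11D2 and -0.19 to -0.15 in the others. The range over 5 tumors was thus 1.84 with the filter, 0.55 without it and 3.83 with the lowest 50% left out. Over the 4 tumors without 09I1 it was 1.45 with the filter.

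**Figure D3:**
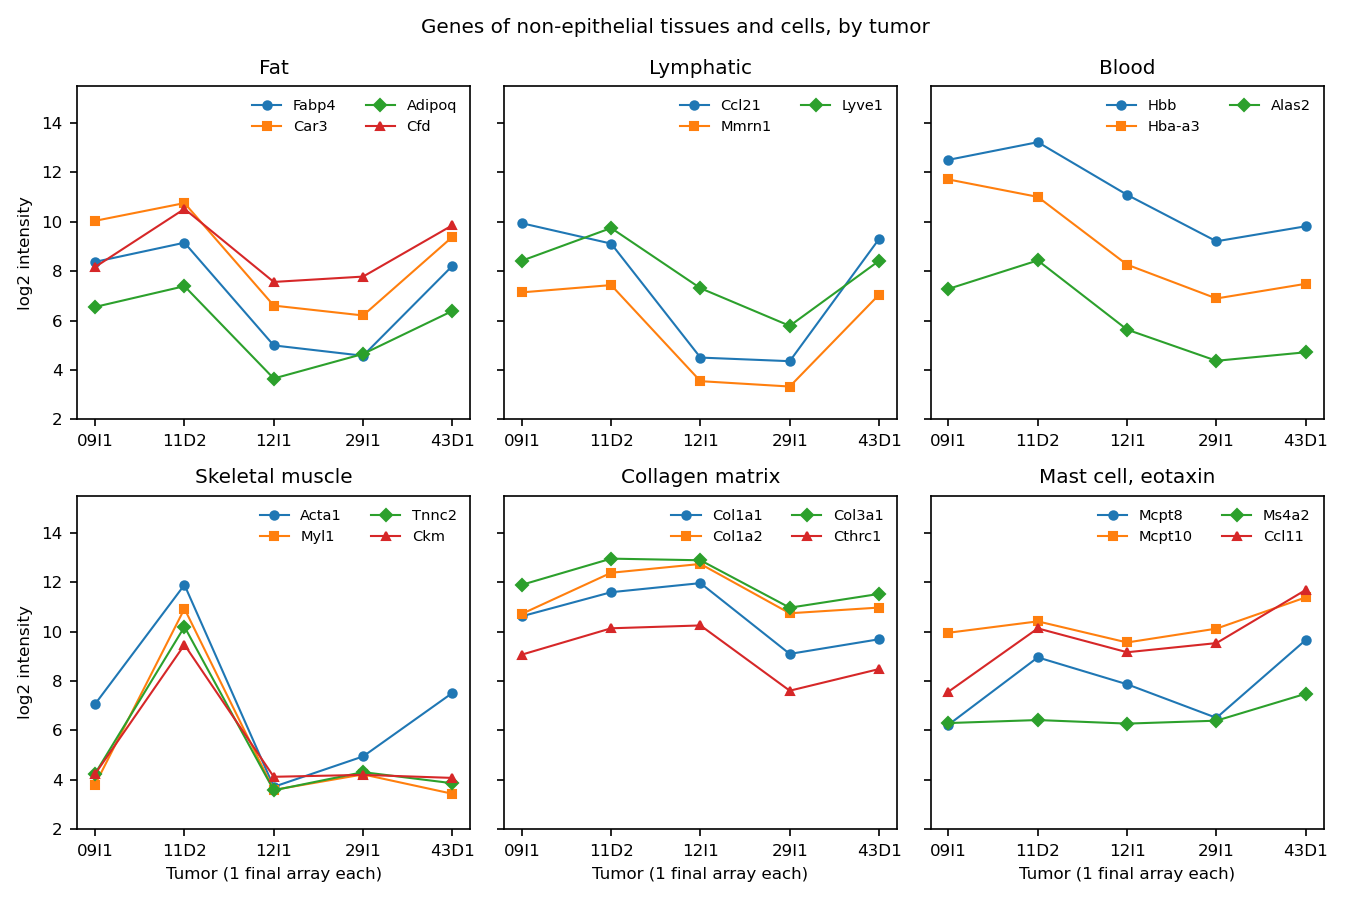
Log2 intensity (vertical axis) by tumor for genes of fat, lymphatic vessels, blood, skeletal muscle, collagen matrix, and mast cells with the eotaxin Ccl11. Lines join the values of a gene and the tumors have no order; Myl1 stands at 10.93 in 11D2 alone, while Ccl21 stands at 9.12 to 9.94 in 3 tumors and at 4.35 and 4.50 in the others.

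Collagen genes divided the tumors in yet another way. Col1a1, a chain of type I collagen, read 11.96 in 12I1, 11.60 in 11D2, 10.62 in 09I1, 9.69 in 43D1 and 9.10 in 29I1. Its second probe set gave the same order. Cthrc1, secreted by activated fibroblasts, read 9.07, 10.13, 10.25, 7.61 and 8.48. The fibroblast and matrix list's profile was 0.57 in 11D2, 0.45 in 12I1, -0.13 in 43D1, -0.42 in 09I1 and -0.49 in 29I1. Over the 4 tumors, 29I1 was lowest for 24 of 34 members (28.4% of all genes), and the common profile carried 47.1%. The range of the list was 1.07 log2 units over 5 tumors and 1.05 over the 4. Fbln1, a matrix glycoprotein, was set apart below in 29I1 at 4.37, against 6.21 to 7.06. Eln, elastin, was 4.78 there against 6.60 to 8.54. Its second probe set was far dimmer, 4.22 in 29I1 and 4.52 to 5.72 elsewhere. Postn, periostin, was bright in all 5, between 11.53 in 09I1 and 13.20 in 11D2.

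Genes of MHC class II, which presents antigen to helper T cells, were lowest in 09I1 for 7 of 8 measured members. Of all 12268 genes, 3864 were lowest there. Cd74, the chaperone of MHC class II, read 13.34 in 11D2, 13.17 in 29I1, 13.01 in 12I1, 12.93 in 43D1 and 12.07 in 09I1. Ciita, the factor that switches on class II genes, read 6.11, 7.68, 7.30, 7.25 and 6.65. All 8 were highest in 11D2 (25.7% of all genes) and lowest in 43D1 (28.1%) among the 4 tumors. The common profile carried 84.1% over 4 tumors, but the range of the list was small, 0.69 log2 units, and 1.39 with 09I1. Ptprc, the leukocyte antigen CD45, was likewise low in 09I1, at 7.10 against 8.93 to 9.53.

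Macrophage genes and T and NK cell genes were also highest in 11D2 as lists among the 4. Macrophage members were highest in 11D2 for 20 of 29 among the 4 tumors (25.7% of all genes). Their list profile was 0.07 in 43D1, -0.21 in 29I1, -0.21 in 12I1 and 0.41 in 11D2. Over all 5 it was highest in 11D2 at 0.46 and lowest in 09I1 at -0.34. Lyz2, lysozyme and the brightest of them, was instead highest in 43D1 at 13.10. The T and NK cell profile was -0.39 in 43D1, 0.09 in 29I1, 0.20 in 12I1 and 0.30 in 11D2. That is the tumor order of the mitosis and replication lists over the 4, but it did not hold throughout. With arrays centred, 29I1 (0.15) lay above 12I1 (0.13). Over all 5, the T and NK cell list was lowest in 09I1 at -0.36, with 43D1 close to it at -0.34. The mitosis and replication lists were highest in 09I1. With arrays centred, 43D1 became the lowest for the T and NK cell list at -0.35, and 09I1 was at -0.23. Cd5, a T cell surface receptor, lay between 6.22 and 7.95 in these 4 tumors and read 6.19 in 09I1. Gzma, a cytotoxic granule protease, departed from the list, with 7.03 in 09I1, 6.68 in 29I1 and 4.41 to 4.98 in the rest.

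Mast cell genes were highest in 43D1, on the whole. There, 12 of 15 measured members were highest of the 4 tumors, where 24.6% of all genes were. The profile was -0.33 in 09I1, -0.25 in 12I1, 0.08 in 29I1, 0.09 in 11D2 and 0.67 in 43D1. Mcpt10, a mast cell protease, read 11.39 in 43D1 and 9.56 to 10.41 elsewhere. Mcpt8, a protease of basophils and mast cells, read 6.23, 8.96, 7.87, 6.51 and 9.66, so 11D2 came close. Ms4a2, a chain of the high-affinity IgE receptor, read 7.48 in 43D1 and 6.27 to 6.42 elsewhere. Mcpt1 was an exception, lowest in 43D1 at 9.14. The range of the list was 1.01, and it was 0.78 without 09I1 and 0.39 without 43D1. Ccl11, the eotaxin that recruits eosinophils, was also highest there, with 11.69 against 7.57 in 09I1 and 9.16 to 10.13 in the others. The eosinophil list that includes it, with 5 measured members, was instead highest in 11D2. Its profile over 5 tumors was 0.51 in 11D2 and -0.23 in 43D1, and over the 4 it was 0.30 and -0.22. Il33, an alarmin that acts on mast cells, read 13.08 in 43D1, 12.10 in 29I1, 11.29 in 11D2, 9.61 in 12I1 and 8.88 in 09I1, and its second probe set had the same order.

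Interferon-induced genes were lowest in 43D1. Among 34 measured members, 29 were lowest there of the 4 tumors (28.1% of all genes). The profile was -0.38 in 43D1 and 0.02 to 0.19 in the other 4, and its range was 0.57 with 09I1 and without it. Mx2, an antiviral GTPase, read 9.78 in 11D2, 9.60 in 09I1, 9.60 in 12I1, 8.35 in 29I1 and 8.28 in 43D1. Cxcl10, a chemokine induced by interferon gamma, read 6.06, 7.22, 7.53, 6.38 and 5.34. Hypoxia and glycolysis genes were lowest in 43D1 for 20 of 26 members among the 4 (28.1% of all genes). Over all 5, 10 were lowest in 43D1 and 15 in 09I1, where 2623 and 3864 of all 12268 genes were lowest. The range of the list was 0.54 with 09I1 and without it. Its profile over 5 was -0.30 in 09I1 and -0.28 in 43D1, and 43D1 became the lowest with arrays centred, after cyclic loess and with means over probe sets. Car9, a carbonic anhydrase induced by low oxygen, read 5.29 there and 6.72 to 7.11 elsewhere. Egln3, an oxygen-sensing hydroxylase, was low in 43D1 and in 09I1, at 6.85 and 7.12, against 8.83 to 9.37.

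**Figure D4:**
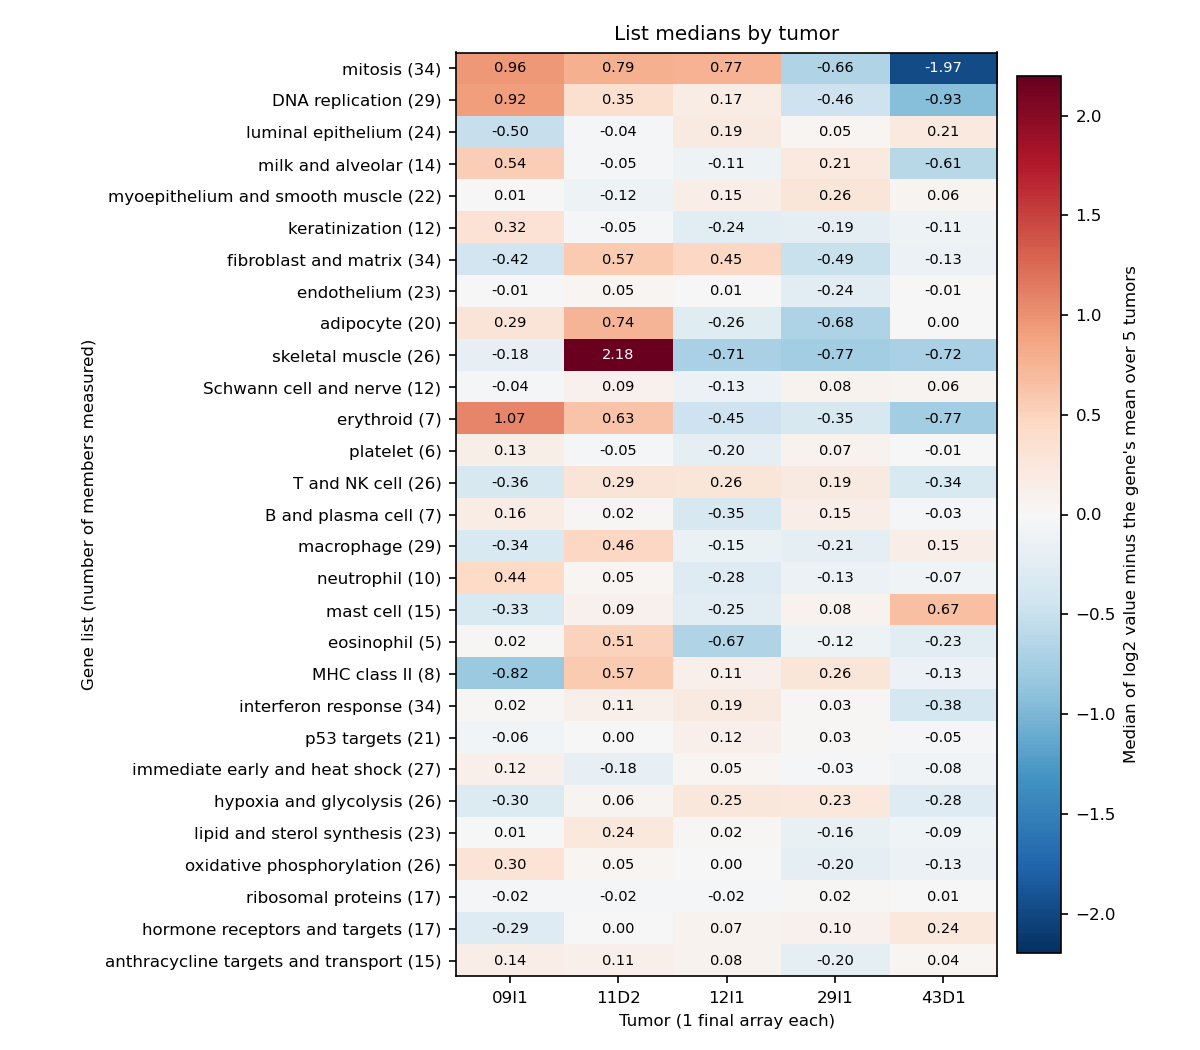
Median over the measured members (number in parentheses) of the log2 value minus the gene's mean over 5 tumors, for 29 gene lists (rows) in each tumor (columns), printed in each cell and coloured from blue (negative) to red (positive). The deepest colours are skeletal muscle in 11D2 (2.18) and mitosis in 43D1 (-1.97), while the ribosomal protein list has a range of 0.039, which becomes 0.23 with arrays centred and 0.22 after cyclic loess.

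Several contractile genes of myoepithelium and smooth muscle were lowest in 11D2. Myh11, smooth muscle myosin, read 10.61 in 43D1, 10.51 in 09I1, 10.43 in 12I1, 10.05 in 29I1 and 8.50 in 11D2. Its second, dimmer probe set was instead lowest in 09I1, at 3.10, with 5.05 in 11D2 and 5.47 to 6.59 in the others. Actg2, smooth muscle gamma-actin, read 9.36, 7.58, 9.31, 9.15 and 10.30. Over the 4 tumors, 13 of 22 members of the list were lowest in 11D2 (23.6% of all genes). Over all 5, 9 were lowest in 11D2 and 9 in 09I1, where 1603 and 3864 of all 12268 genes were lowest. The basal keratin Krt14 did not follow them and was lowest in 43D1, at 10.02 against 11.69 to 12.34. Averaged over probe sets, the list's highest tumor among the 4 changed to 12I1, so only the low end in 11D2 held under the 5 other settings there.

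As a list, secretory genes were highest in 09I1 and lowest in 43D1. Over all 5, 10 of 14 measured members were highest in 09I1, where 44.9% of all genes were. The milk and alveolar profile was 0.54 in 09I1, 0.21 in 29I1, -0.05 in 11D2, -0.11 in 12I1 and -0.61 in 43D1. Without 09I1 it was 0.34 in 29I1, 0.13 in 11D2, -0.04 in 12I1 and -0.44 in 43D1. Glycam1, a mucin-like milk protein, read 12.28 in 09I1, 6.89 in 29I1, 5.61 in 43D1, 5.11 in 11D2 and 4.77 in 12I1. Csn2, beta-casein, read 9.52, 3.97, 3.52, 5.42 and 3.61, and only 09I1 and 29I1 lay above the array's lower quartile. Both genes thus had the same highest tumor and the same second, but both were lowest in 12I1 and not in 43D1. Among the 4 tumors, 10 of 14 members were highest in 29I1 (24.2% of all genes). Elf5, the factor that directs alveolar differentiation, read 9.66, 8.96, 8.42, 9.10 and 7.89, and Lalba was lowest in 43D1 at 11.89. The range of the list was 1.16, and it was 0.78 without 09I1 and 0.61 without 43D1.

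Hormone receptors and their targets did not all divide the tumors in the same way. Their list had a range of 0.53 log2 units over 5 tumors, 0.21 over the 4 without 09I1 and 0.29 without 29I1. Over all 5, 8 of 17 measured members were lowest in 09I1, where 3864 of all 12268 genes were lowest. Pgr, the progesterone receptor, read 5.92 in 09I1 and 8.10 to 8.59 in the others. Esr1, estrogen receptor alpha, was dim on this array type, at 3.95 in 09I1 and 4.68 to 5.73 elsewhere, with 43D1 highest. Greb1, an estrogen-induced gene, read 7.93 in 29I1, 7.29 in 43D1, 6.20 in 09I1 and 5.50 in both 11D2 and 12I1. Its second probe set covered only 4.79 to 5.78 and was highest in 09I1, so the 2 disagreed. Areg, a growth factor induced by estrogen in the mammary gland, lay between 12.37 and 13.03. Erbb2, a receptor kinase of the same family as the receptor of Areg, lay between 8.01 and 8.92.

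Drug-handling genes other than Top2a are given by their values. The list of anthracycline targets and transport had a range of 0.33 log2 units over 5 tumors, 0.25 over 4 and 0.041 without 29I1. Of 15 measured members, 1 reached an SD of 1, namely Top2a, beside 3.09% of all genes. Gstp1, a glutathione transferase and the brightest member, lay between 12.02 and 12.51. Akr1b8, an aldo-keto reductase, read 6.70 in 43D1, 7.06 in 29I1, 7.49 in 09I1, 7.83 in 11D2 and 8.23 in 12I1. Nqo1, a quinone reductase, was lowest in 29I1 at 6.99, with 7.52 to 7.99 elsewhere. The ribosomal protein list had a range of 0.039 over 5 tumors and 0.044 over 4 in the deposited values, 0.23 with arrays centred and 0.22 after cyclic loess.

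Some genes of large spread belonged to none of these lists. Upk3a, a uroplakin of urinary tract lining, had the largest SD over 5 tumors, at 3.26, and read 11.79 in 12I1, 10.82 in 09I1, 6.57 in 43D1, 5.09 in 11D2 and 4.87 in 29I1. It was high in 12I1 and 09I1 and low in the other 3. Duox2, which makes hydrogen peroxide at epithelial surfaces, read 11.49 in 43D1 and 5.02 to 6.18 elsewhere. Nrgn, a calmodulin-binding protein best known from neurons, read 10.04 in 43D1 and 5.88 to 6.62 elsewhere. Spink5, a protease inhibitor of stratified epithelium, read 4.78, 5.63, 6.41, 9.07 and 10.82, and its second probe set had the same order.

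Other genes set apart in a tumor were of mixed kinds. In 43D1, Capn6 was low, at 4.72 against 7.18 to 8.33, and Cyp1b1, an enzyme that oxidises estrogen and carcinogens of the DMBA type, was 6.22 against 7.84 to 10.09. In 12I1, the heat shock protein Hspa1a read 11.89 against 8.61 to 9.69, and its partner Hsph1 read 10.76 against 9.39 to 9.68. In 29I1, Dpp6, a subunit of potassium channels, read 6.28 against 3.85 to 4.01, and Fam110c read 9.32 against 6.91 to 7.32. In 09I1, the immediate early gene Fosb read 9.00 against 4.48 to 5.50, and Chac1, which degrades glutathione, read 9.44 against 6.33 to 6.48. Of 27 measured immediate early and heat shock genes, 3 were set apart above in 09I1 (4.97% of all genes) and 2 in 12I1 (0.0571%). The range of that list was 0.29 over 5 tumors and 0.30 over 4. It is a range of medians, which a few members far apart move little.

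**Figure D5:**
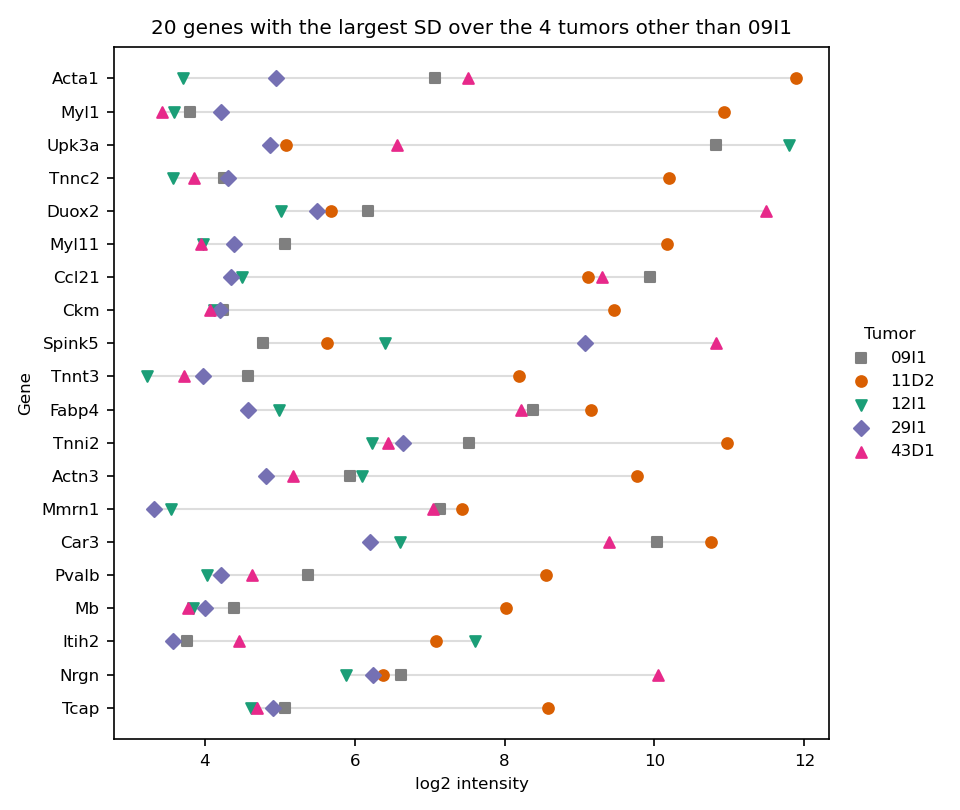
Log2 intensity (horizontal axis) in each tumor (symbols and colours) for the 20 genes with the largest SD over the 4 tumors other than 09I1, joined by a grey line from lowest to highest. In most skeletal muscle genes 11D2 stands alone at the right, Duox2 and Nrgn have 43D1 alone, and Upk3a has 12I1 and 09I1 together.

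Of 29 lists, 10 had a range of at least 1 log2 unit over 5 tumors and 7 over the 4 without 09I1. The 7 were the mitosis, replication, matrix, fat, skeletal muscle, erythroid and eosinophil lists, and 11D2 was highest of the 4 for each. Their lowest tumor differed, with 43D1 for mitosis and replication, 29I1 for matrix and fat, and 12I1 for eosinophil genes. Among lists with a range under 1 over the 4, 11D2 was also highest for class II and macrophage genes, and lowest for contractile genes. In that group, 43D1 was lowest for the interferon and milk lists and highest for mast cell genes. For all of the lists named in this paragraph, the highest or lowest tumor stated was the same among the 4 under centring and cyclic loess.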

How the data were processed

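The authors deposited log2 intensities normalized by robust multichip averaging (RMA), per the labels' protocols. That text also names a filter on controls and dim signals and GeneSpring GX 7.3, but the table held 31099 probe sets, 57 of them controls, so the filter is not in it. RMA shares probe effects and distributions between arrays, which can hide a change common to all genes. Of the other probe sets, 20826 carried 1 symbol, 436 several and 9780 none in the platform annotation, and 20764 matched RefSeq (GRCr8). Only the 5 final arrays were used.

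Controls and the 25% of probe sets with the lowest mean over these arrays were left out, leaving 23281. A gene was its brightest probe set annotated with that symbol only (12268 genes), and 3682 of these had 2 or more measured probe sets. The 29 gene lists held 737 entries, of which 569 were measured. Hras had no measured probe set of its own and was not analysed here. Counting was checked on simulated arrays. Python 3.11.15, pandas 2.3.3 and, for cyclic loess, limma 3.58.1 in R 4.3.3 were used. No detection calls were used, and precision is limited by how few arrays there are.

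The members and lists were chosen with earlier results of these data known. Genes were named by rule. These were the 20 highest means, the 20 largest SDs over 5 and over 4 tumors, and the 5 furthest above and below in each tumor. To these were added 3 of each list by SD, its brightest member, and 30 fixed genes. Ccnd1 and Ms4a2, and Cfd, Col1a2 and Col3a1 in a plot, were chosen after their values were seen. Alternatives were other filters (none, or the lowest 50%), centring, cyclic loess, means over probe sets or over members, a range of 2 in place of an SD of 1, and leaving out each tumor.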

Additional observations from a re-analysis of the deposited data

Results flagged for a closer look

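For 85 sets of 5 values (controls, list profiles, the genes with the highest means and the fixed genes), the gap of the highest or lowest tumor to the nearest was set against the whole range by Dixon's criterion. Of these, 20 had a tumor far from the others. The criterion marks about 1 in 20 sets by chance, but the sets share the same 5 arrays, and 6 of the 20 are controls of 09I1, which was known to stand apart in them. The count is therefore not read against chance. Genes picked for their spread were not examined. The far tumor was 09I1 in 15, 11D2 in 2, 43D1 in 2, 29I1 in 1 and 12I1 in 0.

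In 09I1, the controls were the 3′ to 5′ difference of beta-actin at 2.61 and of GAPDH at 0.93, the poly-A spike-ins at 7.87, bioB and bioC at 9.33 against 8.01 to 8.06, bioD at 11.87 against 11.16 to 11.32, and the median correlation with the other arrays at 0.895. The hybridisation control cre, at 13.30, was not far from the others at 13.12 to 13.29. The genes in 09I1 were Rps29 at 14.05, Rps24 at 13.89, Rpl37a at 13.88 and Rpl41 at 13.83, all above the other 4 tumors. Rpl3 at 13.63, Clca1 at 12.97, Epcam at 12.02, Ptprc at 7.10 and Pgr at 5.92 lay below them. For the ribosomal genes the distance to the other tumors was under 0.3 log2 units.

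In 11D2, the skeletal muscle profile of 2.18 and Ckm at 9.47 stood far above the rest. In 43D1, Krt14 at 10.02 and Pecam1 at 7.15 were low, the latter by a small amount (7.29 to 7.35 in the others). In 29I1, the endothelium profile of -0.24 was low against -0.01 to 0.05.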

How the results depend on the processing

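Of 170 list ranges under other settings, 27 moved by more than the SD of the list's profile between tumors, and of 145 with a tumor left out, 26 did. Of counts, 7 of 81 and 27 of 65 moved by over 1.5 times. A range of at least 2 in place of the SD gave 729 genes, against 379. After removal of the dimmest 50% of probe sets, 31 genes were set apart in 11D2 (66 otherwise) and the erythroid range was 3.83. With no filter the erythroid range was 0.55 and the adipocyte range 0.66. With means over members the milk and alveolar range was 1.82. Leaving out each tumor in turn gave 243 to 485 genes with an SD of at least 1. It gave 82 to 101 genes set apart in 11D2, 20 to 50 in 12I1 (12 otherwise), 59 to 180 in 29I1 (42 otherwise) and 188 to 296 in 43D1 (159 otherwise), where fewer tumors make the condition easier to meet. List ranges were then 1.64 to 2.97 for mitosis, 0.61 to 1.23 for milk and alveolar, 0.86 to 1.45 for adipocyte, 0.56 to 3.01 for skeletal muscle, 0.39 to 1.14 for mast cell, 0.64 to 1.59 for eosinophil and 0.69 to 1.42 for MHC class II. Centring moved 09I1 by 0.13 log2 units and 12I1 by -0.10, so small differences of these tumors from the others depend on the scaling. The cause of the other shifts was not tested. No paired analysis was possible because only the final samples enter. RMA values carry no detection calls, so dim genes have no stated limit.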
